A study of Mus musculus with 11 samples.

Results

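S100a10, S100a11, S100a4, S100a6, S100a13 and S100a16 are small calcium-binding proteins of the S100 family, and most of them have known annexin partners. They were read here as transcripts in mouse bone marrow stromal cells that lacked 1 annexin. The 6 genes were chosen by name and by no threshold on a measured value, with earlier results of these data known. All 6 were present in both tables, out of 20348 genes in all, and all 6 passed the filter on low values.

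S100 proteins form dimers that open a hydrophobic face when calcium binds, and through it they hold a partner protein. S100a10 is the exception: it has lost calcium binding and stays permanently in the open form. An S100a10 dimer joins a pair of Anxa2 molecules into a tetramer at the plasma membrane, which serves as a docking site for plasminogen and its activators and for several ion channels. S100a10 protein that is not bound to Anxa2 is known to be unstable. S100a11 binds the amino-terminal tail of Anxa1, and also Anxa2, and takes part in membrane repair. S100a6, also called calcyclin, binds Anxa11, Anxa2, Anxa5 and Anxa6. S100a4, used as a marker of fibroblasts and of migrating cells, binds non-muscle myosin and Anxa2. S100a13 helps export Fgf1 and Il1a, which lack a signal peptide. S100a16 is a widely expressed member whose partners are less well described.

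The data were RNA-seq libraries of primary mesenchymal stromal cells from mouse bone marrow, made from 8.7 ng of total RNA each and given no treatment. The wild type group held 4 C57/BL6 libraries, the ANXA2 knockout group 3 and the ANXA5 knockout group 4, each knockout on the same C57/BL6 background. The labels name neither the deleted exons nor the number of mice behind a library, so p-values below measure the spread between these libraries. ANXA2 knockout libraries are numbered 1, 3 and 4 as in the data table. Between 23304225 and 35654634 reads per library fell on genes. Values are scaled reads, the reads of a gene divided by a size factor of the library. The targeted genes matched the labels: Anxa2 was 8542 ± 1691 in the ANXA2 knockout (SD, n = 3) against 29822 ± 1354 in wild type (SD, n = 4), and Anxa5 was 2359 ± 57.4 in the ANXA5 knockout (SD, n = 4) against 25529 ± 1704 in wild type (SD, n = 4). Both targeted genes kept a part of their reads in the knockout, so these reads do not show which transcript was left.

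All 11 stromal markers, such as Pdgfrb, Cxcl12 and Col1a1, were read in every library, and their sum was 393856 to 763929 in wild type. Markers of other marrow cells were read in every library as well. The sum of 10 neutrophil markers was 297684 to 529072 in wild type, that of 10 macrophage markers was 76245 to 115387, and no endothelial, erythroid or plasma cell marker was at 0 in any library. In bulk RNA, fewer cells of a type and less RNA per cell cannot be told apart. 2 libraries stood apart in a measure of short transcripts, the median log2 deviation of 539 genes whose longest transcript is at most 1000 bases: it was -0.32 in wild type 3 and 0.28 in ANXA2 knockout 4, and between -0.10 and 0.16 in the other 9. Since 5 of the 6 members have a longest transcript under 1000 bases, the member differences and the correlations between members are also given without them.

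The 6 genes lie on chromosome 3, all on the plus strand, in the S100 cluster and a second site about 3 Mb away. S100a13 (ENSMUSG00000042312.11), S100a16 (ENSMUSG00000074457.11), S100a4 (ENSMUSG00000001020.9) and S100a6 (ENSMUSG00000001025.9) start within 98.4 kb of each other in GENCODE M21. S100a11 (ENSMUSG00000027907.5) and S100a10 (ENSMUSG00000041959.15) start 34.6 kb apart at the second site. Anxa5 is on the same chromosome, 54.0 to 57.1 Mb away. A promoter of 5 members was matched in the RefSeq table (build GRCm38.p6). The 250 bases before the start site are shown for S100a11, whose level differed most between the groups, for S100a6, which varied with S100a10 and S100a13, and for S100a4, the member that varied most within wild type. They are printed on the plus strand, 5′ to 3′. Capitals mark matches, on either strand, to the AP-1 motif TGANTCA, the TATA motif TATAAA, the GC box GGGCGG and the CCAAT motif, which reads ATTGG on the strand shown.
S100a11, chr3:93520246-93520495: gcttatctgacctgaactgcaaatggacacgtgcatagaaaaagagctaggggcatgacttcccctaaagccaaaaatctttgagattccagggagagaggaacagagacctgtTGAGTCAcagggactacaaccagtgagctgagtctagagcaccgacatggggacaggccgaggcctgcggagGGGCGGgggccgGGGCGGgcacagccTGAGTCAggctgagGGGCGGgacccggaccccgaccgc
S100a6, chr3:90612644-90612893: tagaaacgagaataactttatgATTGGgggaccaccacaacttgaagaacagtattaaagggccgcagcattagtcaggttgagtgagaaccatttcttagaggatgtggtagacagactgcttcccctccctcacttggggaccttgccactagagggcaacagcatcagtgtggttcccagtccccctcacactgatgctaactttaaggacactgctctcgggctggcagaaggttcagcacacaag
S100a4, chr3:90603520-90603769: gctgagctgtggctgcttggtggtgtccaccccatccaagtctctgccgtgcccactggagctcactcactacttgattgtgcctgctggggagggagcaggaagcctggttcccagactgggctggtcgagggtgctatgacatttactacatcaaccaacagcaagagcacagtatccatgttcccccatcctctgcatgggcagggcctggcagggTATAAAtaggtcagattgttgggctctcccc
The S100a11 window held 2 AP-1 matches and 3 GC boxes, the last 19 to 24 bases before the start, with 60% GC. The S100a4 window held a TATA match 26 to 31 bases before the start and neither an AP-1 match nor a GC box, and the S100a6 window held only a CCAAT match 224 to 228 bases before the start. Of 32851 mouse promoter windows of this length, 6.75% held the AP-1 motif, 12.4% the TATA motif, 32.7% the GC box and 33.8% the CCAAT motif, and the median GC content was 52.4%. A match is a description of the letters and not a measured binding site. The shown windows share no motif among the 4, although S100a4 and S100a6 start only 9111 bases apart.

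S100a11 was the most abundant member per length in all 3 groups. In wild type it reached 15222 ± 1602 scaled reads per kb of exon (SD, n = 4). On that scale this was of the order of Anxa1, its main partner, at 14188 ± 522, and of Anxa5 at 14032 ± 973. Per kb of the longest transcript S100a11 stayed at 15222, below Anxa1 at 24672 and near Anxa5 at 14405. Per kb of exon S100a6 at 6164 ± 1021 and S100a10 at 5985 ± 985 followed, and their libraries overlapped, so their order is not set. Anxa2, the partner of S100a10, stood at 8565 ± 377 per kb of exon. S100a4 at 2129 ± 739, S100a16 at 2116 ± 503 and S100a13 at 1538 ± 379 formed a lower tier whose libraries overlapped, and the order of S100a4 and S100a16 turned when the longest transcript was used as the length (2497 and 3035 per kb). The wild type ranges of S100a11 and S100a6 did not overlap, nor did those of S100a10 and S100a4, under both length rules. The same 3 tiers held per kb of exon in both knockouts. Per kb of exon S100a11 made up 46.2% ± 4.54 of the summed member level in wild type (SD, n = 4). Its share was 50.6% ± 3.27 in the ANXA2 knockout (SD, n = 3) and 52.8% ± 2.4 in the ANXA5 knockout (SD, n = 4). With the longest transcript as the length the shares were lower, at 35.1%, 39.2% and 41.2%. Under both length rules the ranges overlapped between wild type and both knockouts. The S100 family members that exceed S100a11 here are the neutrophil proteins S100a8 and S100a9. In wild type they stood at 46797 ± 19029 and 104544 ± 36140 per kb of exon. Neither was chosen as a member here, and both are counted among the neutrophil markers.

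**Figure D1:**
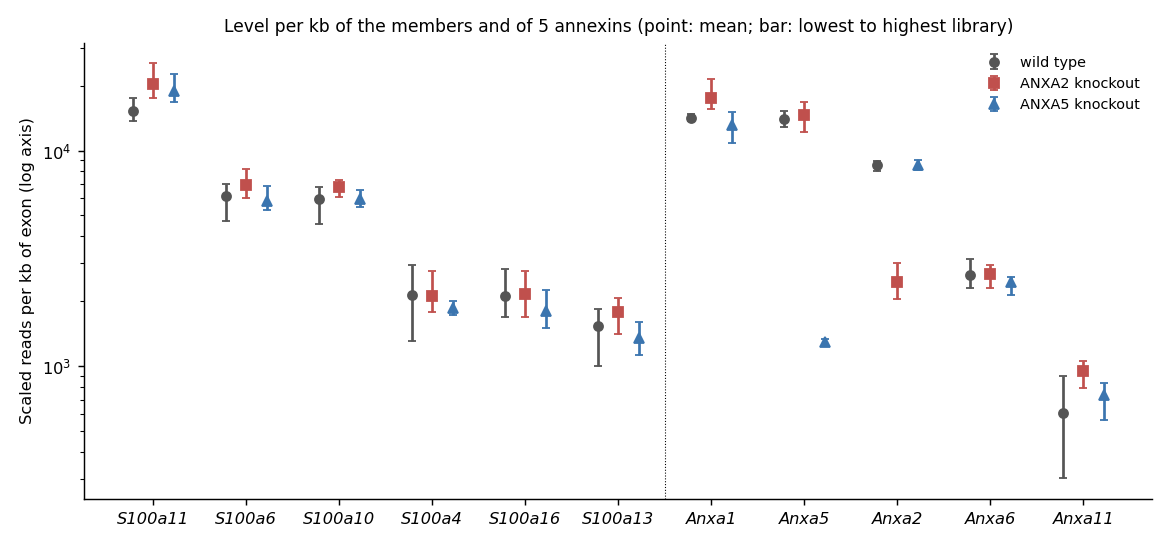
Scaled reads per kb of exon (log axis) of the 6 members and 5 annexins in wild type (circles), ANXA2 knockout (squares) and ANXA5 knockout (triangles); points are means and bars run from the lowest to the highest library. On this scale S100a11 stands near Anxa1 and Anxa5, S100a6 and S100a10 form a middle tier, and Anxa2 and Anxa5 drop only in their own knockout.

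Loss of ANXA2 left the level of S100a10, the binding partner of the missing protein, within the spread of the libraries. S100a10 read 7731, 6889 and 8238 in ANXA2 knockout libraries 1, 3 and 4, against 7199, 7091, 5130 and 7659 in wild type libraries 1 to 4. Knockout library 3 lay below 3 of the 4 wild type libraries, and the groups overlapped. The log2 difference was 0.18 ± 0.154 (SE, limma), with a 95% interval from -0.17 to 0.53 and an adjusted p of 0.72. It was 0.055 without wild type 3, the lowest library, and 0.12 without knockout 4. Transcript reads say nothing of the stability of the protein.

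S100a11 was the member with the largest difference in the ANXA2 knockout. It read 8371, 8641 and 12084 in the 3 knockout libraries, against 7220, 6535, 6954 and 8324 in wild type. Every knockout library lay above every wild type library, by a narrow margin for knockout 1 over wild type 4, and knockout 4 was the highest of all. The log2 difference was 0.40 ± 0.156 (SE; 95% interval 0.05 to 0.76), with an unadjusted p of 0.0295 and an adjusted p of 0.564 over all genes (limma). Libraries of the groups did not overlap, with the knockout higher, for 4.56% of all genes tested, and 8.69% had an unadjusted p under 0.05. The difference was 0.23 without knockout 4, the library with the highest short-transcript measure and the highest neutrophil markers, and 0.38 without wild type 3. The authors' deposited table gave S100a11 a log2 fold change of 0.42 with an adjusted p of 0.411.

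The other 4 members overlapped between wild type and the ANXA2 knockout. S100a6 read 8308, 7693 and 10470 in the knockout beside 8924, 7933, 5997 and 8603 in wild type, with a log2 difference of 0.17 (95% interval -0.22 to 0.56; limma adjusted p = 0.764). S100a13 read 1235, 935 and 1381 against 1176, 1041, 664 and 1225, a difference of 0.23 (-0.29 to 0.74; limma adjusted p = 0.764). In both genes knockout 4 was the highest library and wild type 3 the lowest, the same pair that stood apart in the short-transcript measure. Without wild type 3 the difference was 0.045 for S100a6 and 0.029 for S100a13, and without knockout 4 it was 0.040 and 0.11. S100a4 read 971, 987 and 1497 in the knockout beside 951, 1374, 712 and 1604 in wild type, and the wild type libraries reached both below and above all knockout libraries (log2 difference 0.03, -0.61 to 0.67; limma adjusted p = 0.979). Its difference was -0.18 without wild type 3 and -0.17 without knockout 4. S100a16 was the one member in which knockout 4 was the lowest knockout library. It read 4184, 2995 and 2557 against 4242, 3264, 2555 and 2711 in wild type (0.02, -0.46 to 0.51; limma adjusted p = 0.98), and the difference was -0.076 without wild type 3 and 0.18 without knockout 4.

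**Figure D2:**
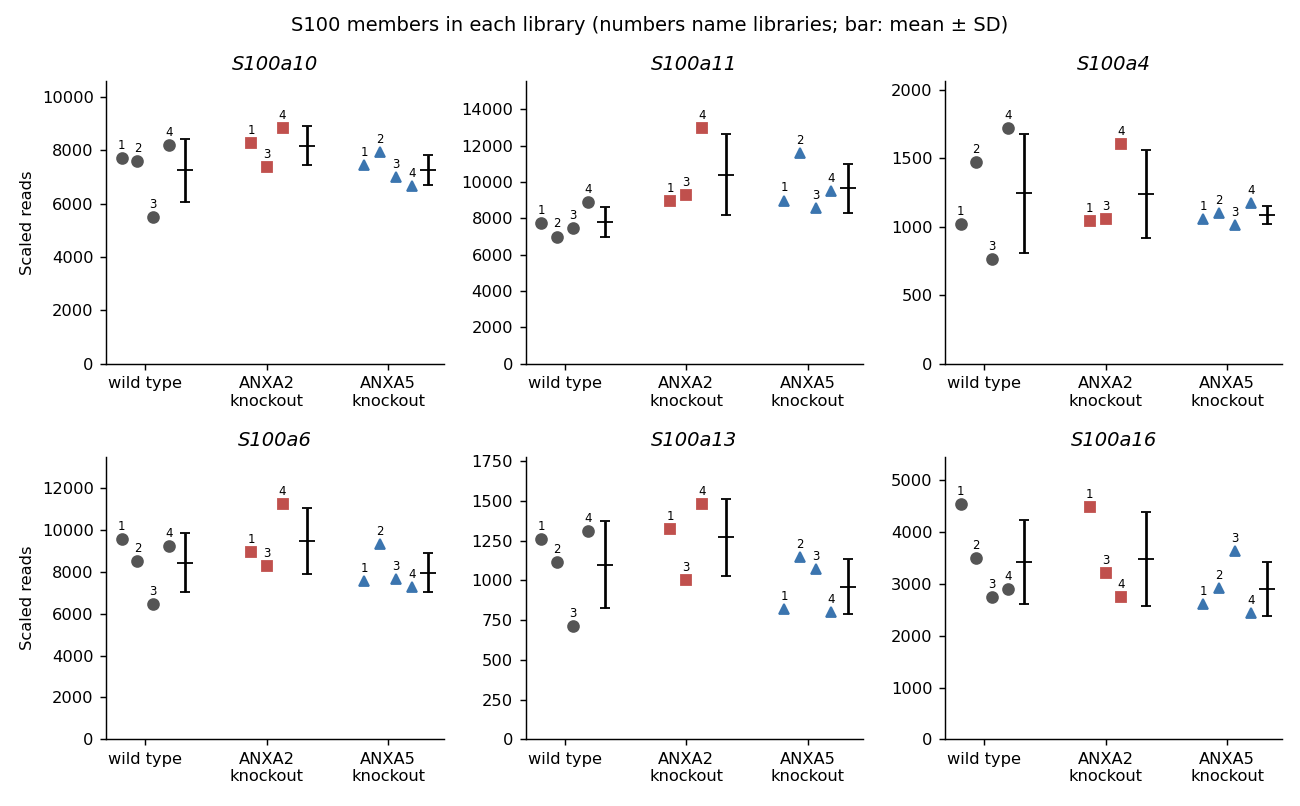
Scaled reads (one joint scale for all 11 libraries) of each member in every library; small numbers name the library, and bars show mean ± SD. S100a11 is higher in the 3 ANXA2 knockout libraries than in all 4 wild type libraries, and wild type 3 is the lowest wild type library for the other 5 members.

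In all, 0 of the 6 members passed an adjusted p under 0.05 in the ANXA2 knockout with limma, where 18 of 16123 genes did (0.112%), and 0 passed with edgeR, DESeq2 or in the authors' deposited table, which called 0.593% of genes. At an unadjusted p under 0.05 limma named 1, S100a11. The fitted difference was above 0 for 6 of 6 members, with a median of 0.18, where 54.1% of all genes were above 0 with a median of 0.02. With edgeR or DESeq2 it was above 0 for 5 of 6.

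S100a11 was again the member with the smallest p in the ANXA5 knockout. It read 9205, 11874, 8753 and 9745 in ANXA5 knockout libraries 1 to 4, against 7897, 7154, 7681 and 9127 in wild type on the scale of that table. Knockout library 3 lay below wild type 4, so the groups overlapped by 1 library each. The log2 difference was 0.31 ± 0.118 (SE; 95% interval 0.05 to 0.57), with an unadjusted p of 0.0253 and an adjusted p of 0.364 (limma), where 11.9% of all genes had an unadjusted p under 0.05. Without knockout 2, the highest library, the difference was 0.22, and without wild type 3 it was 0.29. Both differences use the same 4 wild type libraries, so the S100a11 values of the 2 knockouts are not independent of each other.

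S100a10 stayed inside the wild type range when ANXA5 was lost. It read 7648, 8121, 7154 and 6827 in the knockout beside 7873, 7761, 5665 and 8398 in wild type, and the knockout libraries all lay inside the wild type range. The log2 difference was 0.02 with a 95% interval from -0.27 to 0.30 (limma adjusted p = 0.967). S100a6, which can bind Anxa5 itself, read 7759, 9544, 7849 and 7446 against 9760, 8683, 6624 and 9434, again with the knockout inside the wild type range (-0.07, -0.37 to 0.23; limma adjusted p = 0.84). Without wild type 3, the lowest wild type library for both, the differences were -0.11 for S100a10 and -0.19 for S100a6.

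S100a4 was far more even in the ANXA5 knockout than in wild type. It read 1082, 1127, 1036 and 1202 in the knockout, an SD of 70.8, against 1041, 1504, 786 and 1759 in wild type, an SD of 440; the difference in spread was not tested. Its log2 difference was -0.13 (-0.61 to 0.36; limma adjusted p = 0.824). S100a13 read 842, 1173, 1098 and 823 against 1286, 1140, 733 and 1343 (-0.17, -0.61 to 0.27, limma adjusted p = 0.729). Wild type 3 lay below every knockout library, wild type 1 and 4 above every one, and wild type 2 above all but knockout 2. S100a16 read 2674, 2992, 3717 and 2505 against 4640, 3572, 2822 and 2973, with overlapping groups (-0.23, -0.61 to 0.16; limma adjusted p = 0.605). Without wild type 3 the differences were -0.34 for S100a4, -0.37 for S100a13 and -0.32 for S100a16, with limma adjusted p of 0.463, 0.437 and 0.493.

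Here too 0 of 6 members passed the adjusted threshold, where 5 of 16224 genes did with limma (0.0308%), and 0 passed with edgeR, DESeq2 or in the authors' deposited table, which called 1.76% of genes. At an unadjusted p under 0.05 limma named 1, S100a11. The median difference of the 6 was -0.10, with 2 of 6 above 0, against a median of 0.01 and 52.0% above 0 over all genes.

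The knockouts were also compared with each other on a joint scale. Here 0 of 6 members passed the threshold, where 50 of 16791 genes did (0.298%), and 0 had an unadjusted p under 0.05 (limma), where 13.6% of genes did. edgeR and DESeq2 called 0 members as well. The fitted difference, ANXA2 minus ANXA5 knockout, was above 0 for 6 of 6 with a median of 0.21, where 51.0% of all genes were above 0 with a median of 0.01. S100a13 showed the largest difference, 0.40 (95% interval -0.07 to 0.87; limma adjusted p = 0.427), and S100a11 the smallest, 0.10 (-0.23 to 0.43; limma adjusted p = 0.81). The S100a11 differences from wild type in the 2 knockouts were therefore not shown to differ in size. Without ANXA2 knockout 4 the difference was -0.07 for S100a11, -0.045 for S100a4, 0.11 for S100a10, 0.12 for S100a6, 0.28 for S100a13 and 0.41 for S100a16.

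**Figure D3:**
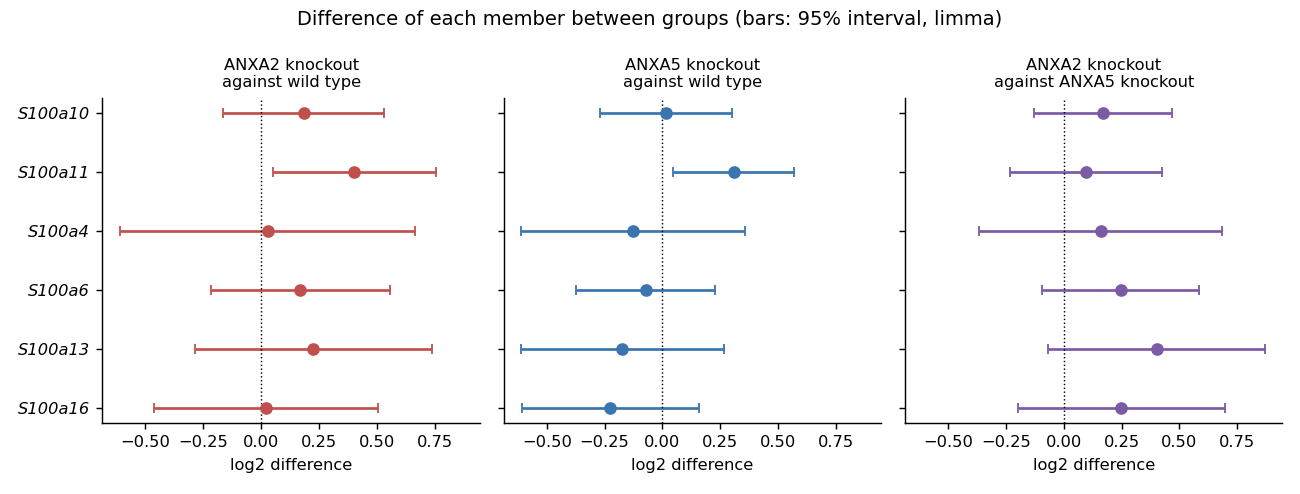
Log2 difference of each member (points) with its 95% interval from limma (bars) in the ANXA2 knockout against wild type, the ANXA5 knockout against wild type and the ANXA2 against the ANXA5 knockout. Only the intervals of S100a11 against wild type leave out 0, from 0.05 to 0.76 and from 0.05 to 0.57, and neither passes after adjustment over all genes.

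The balance of a member and its annexin was then read as a ratio of levels per kb of exon. In wild type the S100a10 to Anxa2 ratio was 0.711, 0.722, 0.565 and 0.788 in libraries 1 to 4, a mean of 0.696 ± 0.0939 (SD, n = 4). In the ANXA2 knockout it was 2.28, 2.64 and 3.54, a 4.01-fold higher geometric mean. Deleting the denominator sets this change, so it is a description with no test; it shows that S100a10 transcripts were not reduced in step with Anxa2. In the ANXA5 knockout the ratio was 0.725, 0.722, 0.710 and 0.632, inside the wild type range (exact permutation test on the log2 ratio, two-sided p = 0.83).

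The S100a11 to Anxa1 ratio separated the ANXA5 knockout from wild type. In the knockout it was 1.41, 1.5, 1.55 and 1.29, a mean of 1.44 ± 0.112 (SD, n = 4). In wild type it was 1.02, 0.989, 1.07 and 1.22, a mean of 1.07 ± 0.101 (SD, n = 4). Per kb of the longest transcript the means were 0.828 and 0.617. Whether S100a11 exceeds Anxa1 thus depends on the length used, while the fold difference between the groups does not. All 4 knockout libraries lay above all 4 wild type libraries, a 1.34-fold difference with an exact permutation p of 0.0286 (two-sided), the smallest that 4 against 4 libraries allow. It was 1 of 3 ratio tests, and the p adjusted over them was 0.0857. Both parts of the ratio entered: S100a11 was higher by 0.31 and Anxa1 lower by 0.12 on the log2 scale, and neither passed a test of its own (Anxa1, limma adjusted p = 0.729). In the ANXA2 knockout the ratio was 0.822, 1.17 and 1.62 and reached both below and above wild type (exact permutation p = 0.686, where 3 against 4 libraries cannot go below 0.0571). Anxa1 itself read 57982, 42083 and 42423 in that knockout and at most 40392 in wild type, a difference of 0.29 (limma adjusted p = 0.617).

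**Figure D4:**
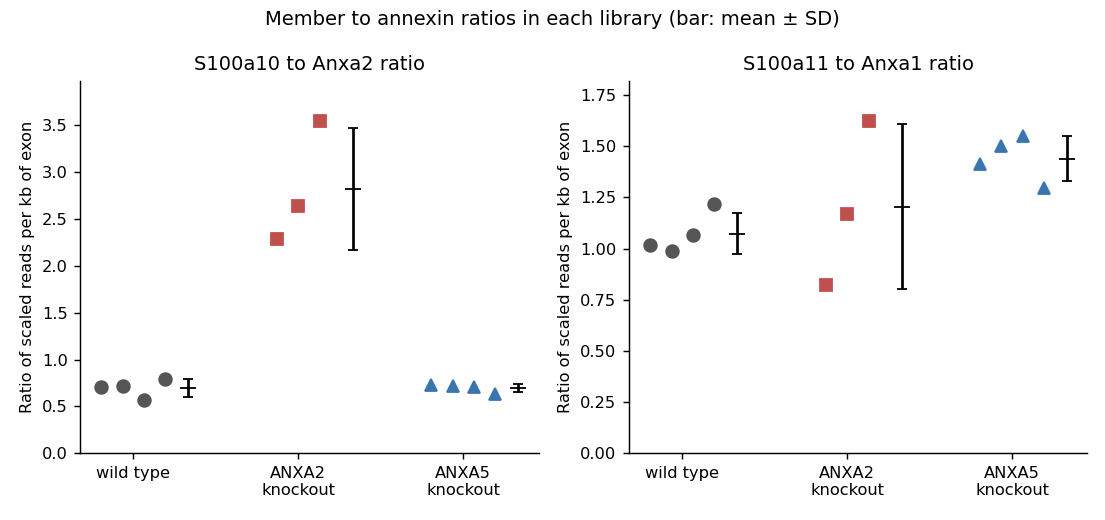
Ratio of scaled reads per kb of exon of S100a10 to Anxa2 (left) and of S100a11 to Anxa1 (right) in each library, with bars for mean ± SD. The S100a10 to Anxa2 ratio lies between 2.28 and 3.54 in the ANXA2 knockout and at or below 0.788 elsewhere, and the 4 ANXA5 knockout libraries lie above wild type in the S100a11 to Anxa1 ratio.

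Within wild type the members differed widely in how steady they were. The highest wild type library held 2.25 times the S100a4 reads of the lowest, 1.84 times for S100a13, 1.65 for S100a16, 1.49 for S100a10, 1.48 for S100a6 and 1.27 for S100a11. Over 11776 genes with a mean of at least 100 the median was 1.32, and 42.1% of them varied less than S100a11, while 94.5% varied less than S100a4. Wild type 3 was the lowest wild type library for 5 of the 6, and wild type 2 for S100a11.

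Over all 11 libraries S100a10, S100a6 and S100a13 varied together. Pearson's r of the log2 values was 0.93 between S100a6 and S100a13, 0.91 between S100a10 and S100a6 and 0.88 between S100a10 and S100a13, although S100a10 lies 2942 kb from S100a6. S100a11, the near neighbour of S100a10, had an r of 0.52 with it, and S100a16 had an r of 0.51 with S100a13 and -0.39 with S100a11. Without wild type 3 and ANXA2 knockout 4 the first 3 values were 0.875, 0.839 and 0.793, that of S100a10 and S100a11 was 0.051, and those of S100a16 were 0.724 and -0.469. These are descriptions over points that share library and depth. The genes most like a member among 11775 others were Lamtor5 (r = 0.971) and Atp5j (0.940) for S100a10, Sri (0.962) and Bloc1s1 (0.956) for S100a6, and Ndufb2 (0.98) and Hint2 (0.948) for S100a13. Sri encodes sorcin, a calcium-binding protein, and Lamtor5 a subunit of the lysosomal Ragulator complex, while Atp5j and Ndufb2 encode parts of mitochondrial ATP synthase and complex I. S100a11 was most like Lypla2 (0.963) and Cdk2ap2 (0.960), S100a16 like Nsfl1c (0.949) and Tbccd1 (0.931), and S100a4 like the proteasome gene Psmb7 (0.874) and AA467197 (0.859). By Spearman's coefficient Cdk2ap2 ranked only 177 for S100a11. Over the 9 libraries left without wild type 3 and ANXA2 knockout 4, the r of these 12 pairs ran from 0.752 (S100a10 with Atp5j) to 0.968 (S100a16 with Tbccd1). The pairs were picked for a high r over all 11 libraries, so a high r over a part of them is no separate support.

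4 relations were tested, of members with annexins over the libraries with the annexin intact, and of S100a4 with S100a6 over all 11. S100a10 and Anxa2 had an r of 0.711 over 8 libraries (Spearman's coefficient 0.643; permutation p = 0.0444, adjusted 0.0888), which fell to 0.237 without the 2 libraries farthest from the median of Anxa2, wild type 3 and ANXA5 knockout 3, so the relation rests on those 2. S100a11 and Anxa1 had an r of 0.242 over 11 libraries (Spearman's coefficient 0.545; permutation p = 0.465, adjusted 0.620), and 0.514 without ANXA2 knockout 1 and ANXA5 knockout 3 (permutation p = 0.155, adjusted over 3 = 0.465). S100a6 and Anxa5 had an r of -0.00 over 7 libraries (Spearman's coefficient -0.07; permutation p = 0.996, adjusted 0.996). S100a4 and its neighbour S100a6 had an r of 0.660 over 11 libraries (Spearman's coefficient 0.427; permutation p = 0.0276, adjusted 0.0888), and 0.222 without ANXA2 knockout 4 and wild type 3. After adjustment 0 of the 4 passed.

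After the values were seen, each member was also set against 2 measures of the library, 12 relations in all. S100a6, S100a10 and S100a13 rose with the short-transcript measure, with r of 0.862, 0.836 and 0.812 (Spearman's coefficient 0.836, 0.745 and 0.791; permutation p adjusted over the 12 = 0.00848 for each). As deviations from the group means the r were 0.950, 0.863 and 0.927, and without ANXA2 knockout 4 and wild type 3 they were 0.569, 0.431 and 0.571, no longer past the threshold. S100a4 and S100a11 also passed, with r of 0.678 and 0.669 (permutation p adjusted over the 12 = 0.0421 and 0.0450), but Spearman's coefficient was 0.445 and 0.282, and r was 0.196 and 0.286 without the same 2 libraries. S100a16, the member with the longest transcript, had an r of 0.09 with this measure. With this measure as a covariate in the fit, the ANXA2 knockout differences were 0.071 for S100a10, 0.032 for S100a6 and 0.037 for S100a13, beside 0.31 for S100a11 (0 of 6 called, limma). The ANXA5 knockout differences were larger in size than without it for 5 members. They were -0.068 for S100a10, -0.17 for S100a6, -0.33 for S100a13, -0.24 for S100a4 and -0.30 for S100a16, beside 0.27 for S100a11. Again 0 of 6 were called (limma), with 2 at an unadjusted p under 0.05.

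S100a11 rose with the neutrophil markers of a library. The sum of 8 neutrophil markers other than S100a8 and S100a9 ran on the joint scale at 249197, 296642, 289791 and 435285 in wild type, 247164, 364715 and 511711 in the ANXA2 knockout, and 403029, 482437, 346213 and 466864 in the ANXA5 knockout. S100a11 was highest in the same library as this sum in each of the 3 groups. Its r was 0.767 over 11 libraries (Spearman's coefficient 0.773; permutation p = 0.00447, adjusted 0.0107), 0.813 as deviations from the group means and 0.900 without the 2 libraries farthest from the median. S100a16 ran the other way, with an r of -0.793 (permutation p = 0.00397, adjusted 0.0107), which fell to -0.528 without ANXA2 knockout 1 and wild type 1. Its Spearman's coefficient of -0.627 did not pass (permutation p adjusted over the 12 = 0.0876). For S100a4 the r was 0.489 (permutation p adjusted over the 12 = 0.193), and 0.692 as deviations from the group means (adjusted 0.0319). The r of S100a10, S100a6 and S100a13 were 0.236, 0.223 and 0.013, and did not pass. With the neutrophil sum as a covariate in the fit, the S100a11 difference was 0.32 in the ANXA2 knockout (limma adjusted p = 0.294). In the ANXA5 knockout it was 0.11 and not called by limma, in a fit that called 2 genes in all. Only wild type 4 reached into the range of the ANXA5 knockout sums, so that fit cannot fully separate the sum from the knockout. All 10 neutrophil markers had a fitted difference above 0 in each knockout, with 0 of 10 called in either by limma, edgeR or DESeq2 (0 and 4 at an unadjusted p under 0.05), and the sums were 279111 to 667441 in the ANXA2 knockout and 456600 to 637825 in the ANXA5 knockout. Macrophage and erythroid markers were read beside S100a11 too. Over all genes tested, 8.69% had an unadjusted p under 0.05 with ANXA2 lost and 11.9% with ANXA5 lost (limma). With ANXA5 lost, 10 of 10 macrophage markers had a fitted difference above 0 (median 0.37, 7 at an unadjusted p under 0.05), as did 7 of 7 erythroid markers (median 0.56, 1 at an unadjusted p under 0.05), and 0 of either were called by limma, edgeR or DESeq2. With ANXA2 lost, 5 of 10 macrophage and 1 of 7 erythroid markers were above 0, with medians of -0.00 and -0.52, although S100a11 was higher there as well. DESeq2 called 1 of these macrophage markers, and limma and edgeR called 0. The part of these markers in the S100a11 values was not tested.

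**Figure D5:**
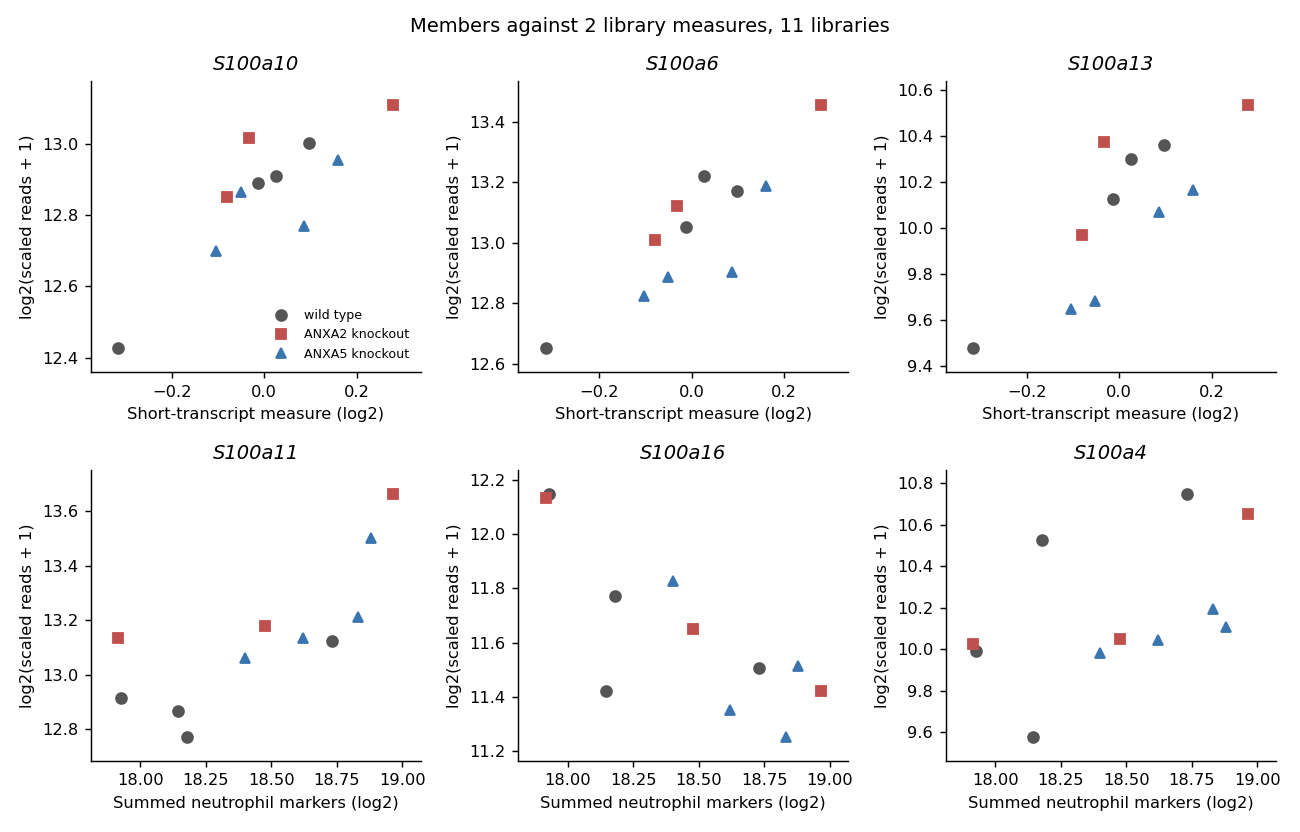
Level of members as log2(scaled reads + 1) in the 11 libraries against the short-transcript measure (top row) and the log2 sum of 8 neutrophil markers (bottom row); each point is a library, with symbols for its group. S100a10, S100a6 and S100a13 rise from wild type 3 at -0.32 to ANXA2 knockout 4 at 0.28, S100a11 rises with the neutrophil markers and S100a16 falls.

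The genes around the members did not pass the threshold either. Of the genes that start within 0.5 Mb of a member, 26 were tested in the ANXA2 knockout and 25 in the ANXA5 knockout, and 0 were called in either with limma, edgeR or DESeq2. An unadjusted p under 0.05 was met by S100a1 and Crtc2 in the ANXA2 knockout and by Slc27a3 and Snapin in the ANXA5 knockout, named after their values were seen. Over all genes tested it was met by 8.69% and 11.9% (limma), so these counts do not stand out. S100a1, whose protein binds ryanodine receptors and titin in muscle, starts 43 bases from S100a13 on the other strand. It read 800, 560 and 826 in the ANXA2 knockout against 506, 494, 454 and 570 in wild type, with knockout 3 just inside the wild type range (log2 difference 0.51, 95% interval 0.15 to 0.87; limma adjusted p = 0.518). From these starts S100a1 and S100a13 run away from each other. The S100a13 difference was 0.23, with a 95% interval from -0.29 to 0.74 (limma adjusted p = 0.764). Without wild type 3 it was 0.029, where that of S100a1 was 0.46. S100a3, in the cluster between S100a16 and S100a4, read 68.6 ± 8.82 (SD, n = 3) against 48.1 ± 12.1 in wild type (SD, n = 4), with no overlap (0.53, limma adjusted p = 0.581). Libraries did not overlap, with the knockout higher, for 4.56% of all genes tested.

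Among the other S100 genes 10 of 12 listed were read in at least 1 table, 8 were tested in each knockout and 0 were called with limma, edgeR or DESeq2, with 1 in each at an unadjusted p under 0.05 (S100a1 and S100b). Over all genes 8.69% and 11.9% met that limit (limma). S100a8, a neutrophil alarmin, ran from 17330 to 75391 in the ANXA2 knockout and from 18286 to 47090 in wild type, and S100a9 from 31367 to 115029 and from 37142 to 75817. S100b, known from glia and fat cells, was 177 ± 12.0 in the ANXA5 knockout against 233 ± 28.2 (SD, n = 4 each), with no overlap (log2 difference -0.39; limma adjusted p = 0.318), where 6.37% of all genes did not overlap in that comparison.

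The annexins other than the target were measured as partners. Of 9 tested in the ANXA2 knockout, 0 were called with limma, edgeR or DESeq2 and 0 had an unadjusted p under 0.05, and the smallest p belonged to Anxa11, the main annexin of S100a6. It read 3050, 3846 and 4078 against 1168, 1700, 2995 and 3484, a difference of 0.77 with overlapping groups (limma adjusted p = 0.573) and a wide wild type spread. Without wild type 1, the lowest library, the difference was 0.48, and with log2 Xist as a covariate it was 1.05 and passed (limma adjusted p = 0.0233), in a fit that called 284 genes in all. Of 9 tested in the ANXA5 knockout, 0 were called with these tools, 2 had an unadjusted p under 0.05 (Anxa4 and Anxa3), 2 were above 0 and the median was -0.12. Over all genes 11.9% had an unadjusted p under 0.05 there (limma). Anxa4, a membrane-binding annexin of epithelia, was 4464 ± 333 against 5275 ± 421 (SD, n = 4 each; -0.24, limma adjusted p = 0.353).

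Of 18 tested targets and clients of the members, 0 were called with limma or edgeR in either knockout, with 1 at an unadjusted p under 0.05 in the ANXA2 knockout (8.69% of all genes) and 6 in the ANXA5 knockout (11.9% of all genes). In the ANXA2 knockout the smallest p values belonged to Dlc1, which S100a10 binds (-0.38, limma adjusted p = 0.565), and Fgf1, the client of S100a13 (-0.34, limma adjusted p = 0.607). In the ANXA5 knockout they belonged to the plasminogen activators that work at the S100a10 and Anxa2 tetramer. Plat, tissue plasminogen activator, was 4159 ± 276 against 6229 ± 1304 (SD, n = 4 each), with no overlap (-0.56; limma adjusted p = 0.230). Plau, urokinase, was 227 ± 100 against 455 ± 106, with no overlap (-1.08; limma adjusted p = 0.266). Libraries of the groups did not overlap for 6.37% of all genes in that comparison. DESeq2 called Plat and Plau, with adjusted p of 0.0155 and 0.0444, while edgeR did not (0.215 and 0.262). With the neutrophil sum as a covariate the Plat difference was -0.29 and that of Plau -0.87.

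Receptors of extracellular S100 proteins were 8, all tested, and 0 were called with limma or edgeR in either knockout. In the ANXA2 knockout 0 had an unadjusted p under 0.05, and the smallest p values were those of Tlr4 (-0.31, limma adjusted p = 0.6) and Cd36 (-0.41, limma adjusted p = 0.660). In the ANXA5 knockout 3 had one: Mcam, Alcam and Cd36. In that comparison 11.9% of all genes had one (limma), and libraries of the groups did not overlap for 6.37%. Mcam, a receptor of S100a8 and S100a9 that also marks vessel-associated stromal cells and endothelium, was 181 ± 12.2 against 110 ± 22.1 (SD, n = 4 each), with no overlap (0.73; limma adjusted p = 0.227, DESeq2 adjusted p = 0.00819). Alcam was 236 ± 13.8 against 178 ± 22.1 (0.41; limma adjusted p = 0.284), and Cd36, a fatty acid and S100 receptor named after its value was seen, was 1388 ± 722 against 637 ± 169 (1.05; limma adjusted p = 0.293, DESeq2 adjusted p = 0.0301). Beside them, 6 of 7 endothelial markers were above 0 in the ANXA5 knockout with a median log2 difference of 1.2 and 0 called with limma (7 at an unadjusted p under 0.05, 3 called with DESeq2), and their sum was 4762 to 7082 against 3736 to 5052 in wild type; their part in the Mcam value was not tested.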

How the data were processed

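RNA-seq libraries of bone marrow stromal cells were compared between wild type (n = 4), ANXA2 knockout (n = 3) and ANXA5 knockout (n = 4). Per the submitters' processing notes, Trim Galore, STAR, HTSeq and DESeq2 were used with build GRCm39; the sources used here do not give versions, strand setting or the role of each tool. The deposited signal values are read counts divided by a size factor of the library. Every value gave back whole reads within 0.001 (100% of values), 23304225 to 35654634 reads per library, and these were used for the count tests. The deposited tables also hold the authors' log2 fold changes, their standard errors and Wald statistics (score columns) and p-values; the Wald statistics, of opposite sign to the fold changes, were not used. The tables held 19259 and 19801 genes, 18712 in both.

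The test was limma 3.58.1 with a mean-variance trend on the log2 of value plus 1. Genes were tested if their value reached 10 in no fewer libraries than the smaller group holds. P-values were adjusted by Benjamini-Hochberg over all genes, with a threshold of 0.05. The knockouts were compared on a joint scale of the shared genes. Alternatives were TMM scaling, edgeR 4.0.16, DESeq2 1.42.0, limma-voom, pseudocounts of 0.5 and 5, no filter or a minimum of 50, an Xist covariate, a replicate block and each library left out. The covariates for neutrophil markers and short transcripts, and the member correlations without 2 libraries, were added after seeing the data. Correlations used 100000 permutations above 9 libraries and exact enumeration otherwise. On simulated data limma found 65% of 2-fold and 95% of 4-fold changes in the ANXA2 layout (16124 genes) and 83% and 100% in the ANXA5 layout (16207 genes). It made 9 and 11 false calls there. The changed genes had a mean of at least 50 and outnumbered the genes that limma called in the data. The shares found can therefore be too high for the data.

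Members, lists and tests were chosen with earlier results of these data known. ANXA2 knockout columns match their group but no single titled library. The text names the members, the annexin partners and the 2 genes most like each member. Of each other list it names the genes called or otherwise the 2 with the smallest p. Of the other S100 genes tested it describes S100a1, S100a3, S100a8, S100a9 and S100b. S100a7a, S100a14 and S100g were tested, not called and not described.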

Additional observations from a re-analysis of the deposited data

Results flagged for a closer look

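In the ANXA5 knockout, library 4 had an S100a10 to Anxa2 ratio of 0.632, below the other 3 libraries of that group, which lay between 0.710 and 0.725. Its gap to the nearest library was 0.841 of the group's range, past the limit for 4 libraries. Of 16 groups of 4 libraries looked at in this way, this was the 1 that passed, and chance alone passes about 1 in 20. The value lay inside the wild type range of 0.565 to 0.788.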

How the results depend on the processing

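Under every setting tried, 0 of the 6 members passed the adjusted threshold in each comparison, the smallest adjusted p of a member being 0.148 with limma, and S100a11 stayed above wild type in both knockouts. The count of genes called was less stable. In the ANXA2 knockout it was 104 with DESeq2, 284 with Xist, the transcript of the inactive X chromosome, as a covariate, 41 with neutrophil markers and 11 with the short-transcript measure as one, and 8 to 16 with 1 library left out. In the ANXA5 knockout it was 282 with DESeq2, 2 with neutrophil markers as a covariate and 4 to 32 with 1 library left out, the 32 without wild type 4. Between the knockouts it was 397 with DESeq2 and 19 to 54 with 1 library left out.

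Signs turned for some differences, none of which was called. In the ANXA2 knockout S100a4 was -0.025 with edgeR, -0.019 with DESeq2, -0.13 with neutrophil markers and -0.20 with the short-transcript measure as a covariate, and -0.18 to 0.21 with 1 library left out. S100a16 was -0.11 with Xist and -0.18 to 0.18 with 1 library left out. With the same 2 covariates S100a8 was -0.16 and -0.20 and S100a9 -0.12 and -0.11, and with 1 library left out they ran from -0.40 to 0.66 and from -0.31 to 0.63. In the ANXA5 knockout S100a10 was -0.00431 with edgeR, -0.000574 with DESeq2, -0.082 with neutrophil markers, -0.068 with the short-transcript measure and -0.11 to 0.080 with 1 library left out. With neutrophil markers S100a16 was 0.071 (from -0.23), S100a1 -0.00535, S100a8 -0.15 (from 0.34) and S100a9 -0.10 (from 0.36), and S100a4 ran from -0.34 to 0.051 with 1 library left out. Between the knockouts S100a11 ran from -0.072 to 0.19 and S100a4 from -0.045 to 0.27. With 1 library left out, the log2 S100a11 to Anxa1 ratio ran from 0.39 to 0.49 in the ANXA5 knockout, where 3 against 4 libraries cannot pass, and from -0.12 to 0.37 in the ANXA2 knockout, and the S100a10 to Anxa2 ratio in the ANXA5 knockout from -0.087 to 0.073. Without wild type 3 and ANXA2 knockout 4 the correlation of S100a11 was -0.24 with S100a4 (from 0.34) and -0.17 with S100a13 (from 0.37). The cause was not tested.

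With the replicate number as a block the ANXA5 comparison called 8 genes instead of 5 and no member. Same-numbered libraries had correlations of 0.05, -0.07, -0.25 and 0.07, which gave no sign of a pairing by number. The labels name no shared animal or day, and so few correlations cannot exclude one. No block was fitted with the ANXA2 knockout, whose columns carry no number tied to a titled library. In simulated data of the ANXA2 layout 65% of 2-fold changes were found, so smaller differences such as that of S100a11 can go uncalled.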
